A study of Mus musculus with 24 samples.

Results

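The 10 astrocyte genes described here are Glul, Slc1a2, Slc1a3, Aldoc, Gja1, Aqp4, Gfap, Aldh1l1, S100b and Sox9. They were chosen by symbol from the gene table of the study, in which each matched 1 of 48709 genes, and were followed across the cortex libraries by exposure. The study measured ribosome-depleted RNA in dissected cerebral cortex and whole blood of mouse neonates whose dams had breathed nPM, a nano-sized particulate matter collected near a freeway, or filtered air. Each tissue gave 12 libraries, with 3 female and 3 male neonates in each exposure group. The 3 of each sex and exposure were from different litters, and whether a female and a male shared one is not stated. The control neonates were of the same strain, and no genetic modification is named for either group. Control dams sat in the same kind of chamber with filtered air. The dams were exposed 3 days a week, 5 h each day, from gestational day 2 until birth. The sample labels give the strain C57BL/6J, an age of 3 to 5 days and 300 mg/m3, whereas the methods of the study give C57BL/6NJ, an age of 5 days and micrograms in place of milligrams. Cortex libraries held 22301409 to 33804371 counts on genes, and blood libraries 13595647 to 21895536.

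Astrocytes arise from radial glia around birth in the rodent cortex, first as few cells that divide locally, and they mature over the following weeks. They take up glutamate from synapses and convert it to glutamine, buffer potassium, carry water at end-feet on blood vessels, and couple to each other through gap junctions. Several genes that define them are already transcribed in radial glia, from which they descend. Because the libraries are of whole tissue, fewer astrocytes and less RNA per astrocyte cannot be told apart in any value below.

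All 10 genes were counted in every cortex library, with at least 241 counts each, and none of the group was absent from the tissue. Levels are given as CPM, the counts of a gene relative to the total on genes, scaled between libraries by edgeR's TMM factors, except that sums over a list of genes and all blood levels are CPM without these factors. Neuron markers summed to 7757 to 8645 CPM across the cortex libraries, with Map2 the most abundant by CPM of 12, and none of them was at 0. The 10 astrocyte genes together summed to 2758, 2985 and 3353 CPM (lowest, median and highest, n = 6) in nPM cortex and to 2672, 3132 and 3793 CPM in control cortex. The control sums spanned the nPM sums at both ends.

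One cortex library stood apart. V24, a control male, had the highest level of 6 of the 10 genes (Glul, Slc1a2, Aldoc, Gja1, Aqp4 and S100b) and was among the 3 highest libraries for 8. V16, also a control male, had the lowest level of 5 (Slc1a2, Aldoc, Gja1, S100b and Sox9) and was among the 3 lowest for 7. The library V24 also had the highest sum of oligodendrocyte lineage markers, 924 CPM against 489 to 762 CPM in the other 11, and of microglia markers, 313 CPM against 193 to 267 CPM. V24 stood apart for some genes outside these lists as well. It was the highest library for the neuron marker Slc17a7, at 585 CPM, and the lowest for the radial glia marker Fabp7, at 253 CPM. Tubb3, another neuron marker, was at 1463 CPM in V24, below its control mean of 1628 CPM. The part of these other cells in the levels of V24 was not tested. V24 and V16 carry the same exposure and sex, so for Slc1a2, Aldoc, Gja1 and S100b both ends of the range of all 12 libraries lay among the control males, as the map of deviations by library shows.

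**Figure D1:**
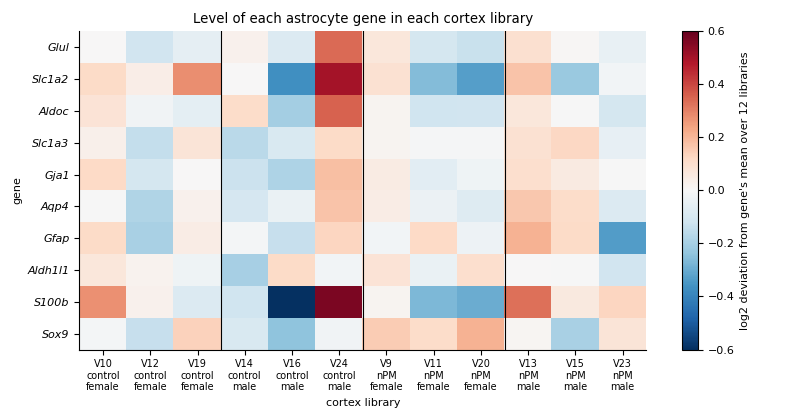
Log2 deviation of each astrocyte gene (rows) from its own mean over the 12 cortex libraries (columns, ordered by exposure and sex), on TMM-scaled CPM; red is above and blue below the mean. The column of V24 is red for most genes and that of V16 blue for most, and both are control males.

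Promoter sequence is shown for Glul, S100b and Aldoc, because these 3 genes were highest in the same library, have a RefSeq start within 105 bases of the annotated gene start, and hold the short motif searched. RefSeq promoters (GRCm38.p6) were found for 8 of the 10 genes, and Aqp4 and Sox9 had no entry. The motif was TTGGC, or GCCAA on the other strand, the short core of the site bound by nuclear factor I, a family that includes Nfia, Nfib and Nfix and is known for its part in the start of gliogenesis. GCCAA followed by T contains the CCAAT box, so the motifs cannot be separated there. The 250 bases before the start are given 5′ to 3′ on the gene's strand, with each copy of the motif in capitals.
Glul: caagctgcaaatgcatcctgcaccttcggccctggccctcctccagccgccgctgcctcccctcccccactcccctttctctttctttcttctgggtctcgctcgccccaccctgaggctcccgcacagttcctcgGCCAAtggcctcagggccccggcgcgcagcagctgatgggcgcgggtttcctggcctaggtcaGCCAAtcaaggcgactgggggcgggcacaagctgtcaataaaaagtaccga
S100b: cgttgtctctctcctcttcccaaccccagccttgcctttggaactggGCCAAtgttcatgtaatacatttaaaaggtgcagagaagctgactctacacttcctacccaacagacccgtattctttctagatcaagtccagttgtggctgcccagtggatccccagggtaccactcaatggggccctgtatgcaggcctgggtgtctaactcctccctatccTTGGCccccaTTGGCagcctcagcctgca
Aldoc: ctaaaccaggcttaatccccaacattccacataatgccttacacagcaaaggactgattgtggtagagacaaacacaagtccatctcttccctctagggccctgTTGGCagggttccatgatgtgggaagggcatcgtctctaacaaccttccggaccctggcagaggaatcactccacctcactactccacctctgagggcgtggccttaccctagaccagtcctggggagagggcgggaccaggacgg
The Glul stretch lies at chr1:153899679-153899928 and holds 2 motif copies, both in a CCAAT box. That of S100b, at chr10:76253586-76253835, holds 3, of which 2 lie in a CCAAT box, with the nearest beginning 19 bases before the start. Aldoc has 1, in the stretch chr11:78322823-78323072, 146 bases before its first listed start, outside a CCAAT box. The stretch before its other listed start holds none. All 3 stretches printed above are on the plus strand. The stretch of Slc1a2 also holds 1 and those of Gja1, Gfap, Aldh1l1 and Slc1a3 hold none, but the only listed start lies inside the annotated gene for Slc1a2, by 47779 bases, for Aldh1l1, by 64366 bases, and for Gfap, by 3712 bases. Of all 32851 promoters listed, 41.5% hold at least 1 copy of it and 11.5% at least 2, beside a match in 4 of these 8 genes. The shares are of listed promoters rather than of genes.

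Per length, the 10 genes ranged over a wide span in neonatal cortex. On the scale of RPKM, counts relative to the library total and to the length of the gene model, computed here, Glul, which encodes glutamine synthetase, was highest at 184 ± 17.7 (SD, n = 12). Slc1a2, the glutamate transporter GLT-1, followed at 90.1 ± 16.5 RPKM without overlap, and Aldoc, the brain form of the glycolytic enzyme aldolase, at 65.1 ± 6.92 RPKM, below Slc1a2 in each of the 12 libraries although their ranges overlapped. Slc1a3, the transporter GLAST, stood at 54.6 ± 3.59 RPKM, Gja1, the gap junction protein connexin 43, at 49.6 ± 3.71 RPKM and Aqp4, the water channel of end-feet, at 45.0 ± 3.40 RPKM. The ranges of these last 3 genes and of Aldoc overlapped from each to the next, although the order Aldoc, Slc1a3, Gja1 held in each of the 12 libraries and Gja1 was above Aqp4 in 11 of them. Gfap, the intermediate filament protein, had 29.3 ± 3.07 RPKM and lay below Aqp4 without overlap. Aldh1l1, an enzyme of folate metabolism, had 16.7 ± 1.03 RPKM, S100b, a calcium-binding protein, 13.8 ± 2.99 RPKM and Sox9, a transcription factor of the glial lineage, 2.27 ± 0.22 RPKM. Aldh1l1 was above S100b in 10 of 12 libraries with overlapping ranges, and Sox9 lay below all the others.

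The first question of the design was whether prenatal nPM altered these levels in cortex of both sexes. For none of the 10 genes did the difference between nPM and control cortex pass the test. In edgeR's quasi-likelihood test with sex and RNA integrity number (RIN) as covariates, 0 of 10 had an unadjusted p under 0.05, where 5.67% of the 20857 genes tested did, and 0 of 10 an unadjusted p under 0.005, where 0.614% did. By limma voom and by DESeq2 the count was also 0 of 10 at an unadjusted p under 0.05. The smallest unadjusted p was 0.108, adjusted p-values ran from 0.88 to 0.991, and over the whole transcriptome 0.0144% of genes passed an adjusted p of 0.05. The 10 log2 fold changes ran from −0.21 to 0.12 with a median of 0.01, and the median of all genes was −0.00. For each of the 10 genes the control and nPM values overlapped, and only 0.197% of all genes had groups that did not overlap.

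**Figure D2:**
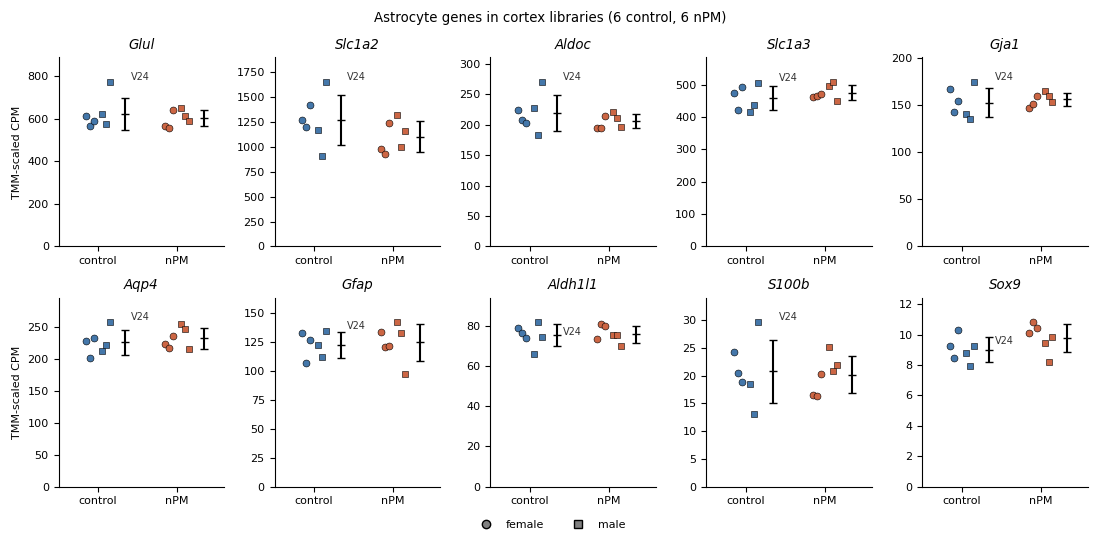
TMM-scaled CPM of each astrocyte gene in each cortex library (circles female, squares male), by exposure, with the mean and SD of each group of 6 beside the points; the level of the control male V24 is labelled. Control and nPM points overlap for all 10 genes, and V24 is the highest point for 6 of them.

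Among those of the 10 genes that serve glutamate uptake and recycling, Slc1a2 (chr2:102658659-102790784, mm10) had the largest difference. It had 928, 1076 and 1312 CPM (lowest, median and highest) in nPM cortex and 904, 1231 and 1647 CPM in control cortex. Both the lowest and the highest libraries were controls, and 2 of 6 nPM libraries lay above the control median. Its log2 fold change was −0.21 (SE 0.12, 95% interval −0.46 to 0.05, edgeR unadjusted p = 0.108, adjusted p = 0.88), and the exact permutation test over 924 relabellings gave p = 0.208. Without V24 the log2 fold change was −0.11 and without V16 −0.30 (edgeR unadjusted p = 0.0097). When genes with counts in any library were kept in the fit, its adjusted edgeR p was 0.031.

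Slc1a3 (chr15:8634124-8710764) had 450, 467 and 508 CPM in nPM cortex and 417, 456 and 504 CPM in controls. 5 of 6 nPM libraries lay above the control median, within overlapping ranges. The log2 fold change was 0.05 (SE 0.05, edgeR unadjusted p = 0.369, adjusted p = 0.911). Glul (chr1:153899944-153909723) had 557, 602 and 652 CPM in nPM cortex against 564, 600 and 772 CPM in controls, with a log2 fold change of −0.04 (SE 0.06, edgeR unadjusted p = 0.498). The medians of Glul were nearly equal and the highest control was V24, without which the log2 fold change was 0.02.

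Among the genes of end-feet and coupling, Aqp4 (chr18:15389394-15403684) had 215, 229 and 255 CPM in nPM cortex and 201, 225 and 257 CPM in controls. Its nPM range lay within that of the controls. The log2 fold change was 0.04 (SE 0.06, edgeR unadjusted p = 0.533). Gja1 (chr10:56377300-56390419) had 147, 156 and 165 CPM against 135, 148 and 174 CPM, again inside the control range, with a log2 fold change of 0.03 (SE 0.05, edgeR unadjusted p = 0.611).

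Of the structural and metabolic genes, Gfap (chr11:102887336-102900912) had 97.3, 127 and 142 CPM in nPM cortex and 107, 124 and 134 CPM in controls, and its lowest and highest libraries were both nPM males. Its log2 fold change was 0.02 (SE 0.08, edgeR unadjusted p = 0.809). Aldoc (chr11:78322968-78327781) had 195, 203 and 221 CPM against 183, 216 and 270 CPM, with the nPM values inside the control range and 1 of 6 above the control median. Its log2 fold change was −0.10 (SE 0.07, edgeR unadjusted p = 0.155), with −0.034 without V24 and −0.15 (edgeR unadjusted p = 0.0252) without V16. Aldh1l1 (chr6:90486427-90600203) had 69.7, 75.4 and 80.9 CPM against 65.7, 75.6 and 81.7 CPM. That gene had the narrowest interval of the 10, with a log2 fold change of 0.01 (95% interval −0.10 to 0.11, edgeR unadjusted p = 0.905).

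S100b (chr10:76253853-76261159), which is lower than most of the group in abundance, had 16.3, 20.5 and 25.1 CPM in nPM cortex, and a median of 19.6 CPM and a highest level of 29.6 CPM in controls. The lowest control, V16, lay below every nPM library and differed from the highest, V24, by 2.28-fold within 1 group. The log2 fold change was −0.05 (SE 0.14, 95% interval −0.34 to 0.24, edgeR unadjusted p = 0.713), the widest interval of the 10. Sox9 (chr11:112782224-112787760) had 8.18, 9.99 and 10.8 CPM against 7.93, 9.01 and 10.3 CPM. 5 of 6 nPM libraries lay above the control median of Sox9, with a log2 fold change of 0.12 (SE 0.08, edgeR unadjusted p = 0.156), and the exact permutation test gave p = 0.136.

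The spread between libraries set how small a change could be seen. The biological coefficient of variation, edgeR's estimate of the spread between libraries beyond counting error, was 7.04% for Aldh1l1 and 7.55% for Gja1, and its median over all genes was 11.7%. Only S100b, at 16.8%, and Slc1a2, at 15.2%, exceeded that median. Counting error was small beside it for Slc1a2, which had 20836 to 53533 counts per library. Several of the genes overlap others and the strandedness of the counting is not stated, so reads could be shared between Gfap and Gm26668, Slc1a2 and Gm13872, S100b and Dip2a, Glul and Teddm2 or Mir8114, Slc1a3 and Gm37310, and Aldh1l1 and Gm45901, Gm44236 or Gm15756. Aqp4, Gja1, Sox9 and Aldoc overlap no other annotated gene.

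Sequencing lane crossed exposure, with 4 nPM and 4 control libraries in lane 2 and 2 of each in lane 3. In lane 2 the log2 ratio of the mean levels of Slc1a2 was −0.00 and in lane 3, which held V24, it was −0.56. Gfap had log2 ratios of 0.16 and −0.26, S100b of 0.12 and −0.35, and Glul of 0.06 and −0.24. In lane 3 the ratio was above 0 for Aldh1l1 and Sox9 alone, at 0.02 and 0.08. The difference between the lanes was not tested.

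The second question was whether the exposure effect differed between the sexes. In female cortex Slc1a2 had the smallest p of the group. It had 928, 975 and 1241 CPM in the 3 nPM females (V20, V11 and V9) and 1201, 1262 and 1415 CPM in the 3 control females (V12, V10 and V19). The highest nPM female lay above the lowest control, so the groups overlapped. Its log2 fold change was −0.32 (SE 0.10, 95% interval −0.54 to −0.10, edgeR unadjusted p = 0.00723, adjusted p = 0.145), and it was the only one of the 10 with an unadjusted p under 0.05, where 15.4% of the 21731 genes tested in females had one. DESeq2 gave an unadjusted p of 0.0704 for it. By edgeR its log2 fold change was −0.21 without the nPM female V20 (unadjusted p = 0.0715), −0.23 without the control female V19 (unadjusted p = 0.0847) and −0.46 without the nPM female V9 (unadjusted p = 2.68e-05, adjusted p = 0.00967). When genes with counts in any library were kept, its adjusted edgeR p in females was 2.76e-08. S100b had a log2 fold change of −0.22 (SE 0.11, edgeR unadjusted p = 0.06, adjusted p = 0.35) in females, from −0.32 without V9 (edgeR unadjusted p = 0.00905) to −0.039 without V20. Its unadjusted p was under 0.05 without RIN, with lane added and when genes counted in any library were kept. The median over the 10 genes was 0.01. With all 6 libraries and the filter on every library, none of the 10 had an unadjusted p under 0.005 in females by edgeR, where 4.02% of genes had one, or an adjusted p under 0.05, where 1.11% did. The 241 genes behind that last share were 23 without V11 and 383 without V9.

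In male cortex 1 of the 10 genes, Aldoc, had an unadjusted p under 0.05, where 4.51% of the 21670 genes tested had one. Aldoc had 196, 211 and 221 CPM in the 3 nPM males (V23, V15 and V13) and 183, 228 and 270 CPM in the 3 control males (V16, V14 and V24). The nPM males lay inside the range of the controls. With RIN as covariate its log2 fold change was −0.25 (SE 0.10, edgeR unadjusted p = 0.0315, adjusted p = 0.962), without RIN it was −0.11, without V24 −0.10 and without V23 −0.42. The unadjusted p was above 0.05 without RIN and without V13, V15 or V24. Gfap stood at −0.17 in males with RIN as covariate (edgeR unadjusted p = 0.0951) and at 0.02 without it. Slc1a2 was at −0.23 (SE 0.18, edgeR unadjusted p = 0.249) and Glul at −0.17 (SE 0.10, edgeR unadjusted p = 0.129) in males. For both, the unadjusted p was under 0.05 with lane added and when genes counted in any library were kept. Without RIN they were at −0.098 and −0.081, without V24 at 0.067 and −0.013, and without V23 at −0.60 and −0.27. RIN ran from 9.4 to 9.9 in the cortex libraries.

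The direct test of a difference between the sexes, the exposure-by-sex term, gave 0 of 10 genes with an unadjusted p under 0.05, against 9.68% of all genes, and unadjusted p-values from 0.329 to 0.955 by edgeR. For Slc1a2 the term, males minus females on the log2 scale, was 0.17 (95% interval −0.37 to 0.71) and for S100b 0.26 (95% interval −0.36 to 0.87). Without V24 the term of S100b was 0.65 (edgeR unadjusted p = 0.00408) and that of Slc1a2 0.46 (edgeR unadjusted p = 0.0328). Without V20 the terms were −0.00083 and −0.016. Between males and females irrespective of exposure 0 of 10 genes had an unadjusted p under 0.05, where 6.09% of all genes had one, and the largest difference was that of Sox9, at −0.15 in males relative to females (SE 0.09, edgeR unadjusted p = 0.129).

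**Figure D3:**
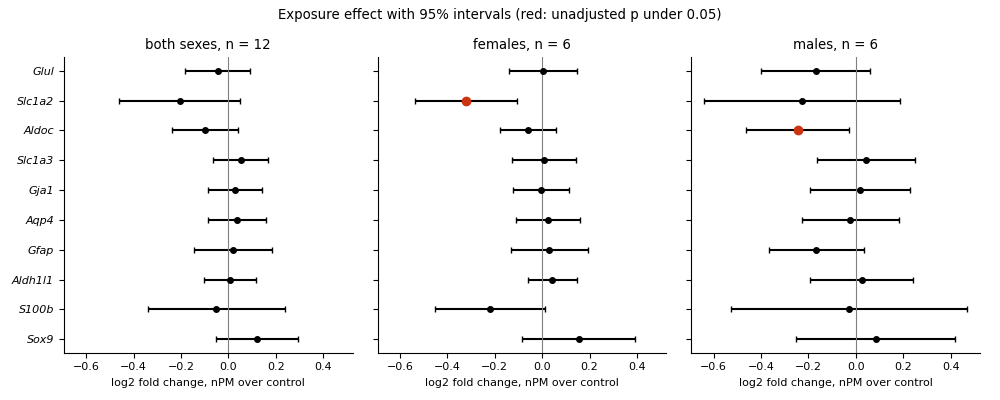
Log2 fold change of nPM over control with its 95% interval for each astrocyte gene, from edgeR fits of both sexes (n = 12), females (n = 6) and males (n = 6); red marks an unadjusted p under 0.05. In the fit of both sexes all 10 intervals include 0, in females that of Slc1a2 and in males that of Aldoc do not, and none passed an adjusted p of 0.05.

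Other genes of astrocytes and of their pathways were grouped in lists, each described by its count of genes at an unadjusted p under 0.05 in edgeR, to be read beside 5.67% of all genes in both sexes, 15.4% in females and 4.51% in males. Of 35 other astrocyte genes, 6 were higher and 3 lower at an unadjusted p under 0.05, together 25.7% of the list, where 2.73% of all genes were higher and 2.94% lower. The median log2 fold change of the list was −0.02, and 6 to 11 of its genes passed when each library was left out in turn. In females 3 were higher and 3 lower, or 17.1% (13 genes in all without V9), and in males 1 of 35 was lower, or 2.86%. The smallest p was that of Mfge8, which encodes a secreted protein that tags cell debris for uptake. It had 106 to 125 CPM in nPM cortex and 92.1 to 107 CPM in controls. The groups overlapped at their edge, where the nPM male V23 lay below the control male V24. Its log2 fold change was 0.21 (SE 0.05, edgeR unadjusted p = 0.000708, adjusted p = 0.492), and in females 0.28 (edgeR unadjusted p = 0.00019, adjusted p = 0.0286).

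Acsl6, an acyl-CoA synthetase for long-chain fatty acids, had a log2 fold change of −0.15 (SE 0.04, edgeR unadjusted p = 0.00225, adjusted p = 0.642), at 118 ± 4.19 CPM in nPM and 130 ± 5.38 CPM in control cortex (SD, n = 6). Kcnj10, the potassium channel Kir4.1, which also belongs to the list of end-feet, was at 18.3 ± 2.59 CPM in nPM and 24.4 ± 5.33 CPM in control cortex. Its log2 fold change was −0.41 (SE 0.13, edgeR unadjusted p = 0.00538, adjusted p = 0.808), with the highest levels in the controls V19 and V24. Sparcl1, the most abundant gene of the list per length (as for each most abundant gene named from here on), had 1219 ± 124 CPM in controls and a log2 fold change of −0.05 (SE 0.06, edgeR unadjusted p = 0.399). No gene of any list passed an adjusted p of 0.05 in the fit of both sexes, where the smallest was 0.492.

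Of 18 genes of the glutamate and glutamine cycle 1 was higher in both sexes, or 5.56%. In females 2 were higher and 3 lower, or 27.8%, a count of 5 that was 2 without V10. In males 1 was higher, or 5.56%. The gene that passed in both sexes was Slc17a6, a vesicular glutamate transporter of neurons, with a log2 fold change of 0.12 (edgeR unadjusted p = 0.0488), which was 0.068 without V10. Its unadjusted p was above 0.05 by limma voom, with a minimum of 10 counts, with filterByExpr, without RIN and with lane added. Gls2, a glutaminase, was at −0.27 (edgeR unadjusted p = 0.0796) in both sexes and at −0.61 in females (edgeR unadjusted p = 0.00073, adjusted p = 0.0552). Slc17a7, the most abundant of that list, stood at −0.15 (edgeR unadjusted p = 0.183) and at −0.029 without V24. Of 12 genes of the end-foot and water channel complex 2 were lower, or 16.7%, Kcnj10 and the chloride channel Clcn2, at −0.15 (edgeR unadjusted p = 0.0298), and Mlc1, the most abundant, was at 0.03. In females 4 of the 12 were lower and none higher, or 33.3%. Of these Dmd, which encodes dystrophin, was at −0.28 (edgeR unadjusted p = 0.000103, adjusted p = 0.021) and Kcnj10 at −0.59 (edgeR unadjusted p = 0.00201, adjusted p = 0.0863), while Dmd had −0.11 (edgeR unadjusted p = 0.0822) in both sexes. In males none of the 12 passed. Dmd, and Slc16a7 below, were chosen after their values in females were seen.

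Of 8 connexins and partners none passed in both sexes or in males. In females 2 passed, or 25%, although 0 did by DESeq2 and 0 to 1 with each female library left out. In both sexes Gjc3 was at −0.30 (SE 0.17), Gjc1 at −0.13 (SE 0.09) and Tjp1, the most abundant, at −0.04. Gjc3 was at −0.16 without V20 and Gjc1 at −0.060 without V16. Among 26 genes of glycolysis, glycogen and lactate 2 passed, or 7.69%, a count that was 0 without V10 and 4 without V24. Ppp1r3c, a regulatory subunit for glycogen synthesis that is also on the list of other astrocyte genes, was higher at 0.10 (edgeR unadjusted p = 0.0389). Pfkp, the platelet form of phosphofructokinase, was lower at −0.14 (edgeR unadjusted p = 0.0452), which was −0.089 without V11. The unadjusted p of Pfkp was above 0.05 with RLE factors and with a minimum of 10 counts. That of Ppp1r3c was above 0.05 when genes counted in any library were kept. In females 3 of the 26 passed, or 11.5%, with Pfkp at −0.31 (edgeR adjusted p = 0.0237) and Slc16a7, a monocarboxylate transporter, at −0.28 (edgeR adjusted p = 0.0469). In males 2 of the 26 were lower and none higher, or 7.69%, and the median log2 fold change was −0.11. Pkm, the most abundant, was at 0.02. Of 25 regulators of gliogenesis none passed in both sexes, with Smad1 at 0.09, Sox2 at 0.12 and Id2, the most abundant, at −0.03. In females 6 passed, or 24%, although 0 did by DESeq2 and 2 to 3 with each female library left out. In males 1 passed, or 4%.

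Of 33 genes known to rise in reactive astrocytes, 29 had counts in every cortex library. 3 of these were higher at an unadjusted p under 0.05 and none lower, or 10.3%, against 3 of 30, or 10%, in females (1 by DESeq2 and 5 without V10) and none in males, and their median log2 fold change was 0.06. Cd109, a surface protein, was at 0.28 (SE 0.12, edgeR unadjusted p = 0.0291) and Fbln5, an extracellular matrix protein, at 0.32 (SE 0.15, edgeR unadjusted p = 0.0448). With lane added the unadjusted p of Fbln5 was above 0.05. S100a10, the most abundant, was at −0.05 (SE 0.07). Summed, the list had 254, 273 and 286 CPM in nPM cortex and 245, 255 and 290 CPM in controls, so the groups overlapped. Lcn2 and Cxcl10, 2 genes known for strong induction in reactive states, were among the 4 not counted in every library, at means of 0.08 CPM each. The count of 3 was 0 without the control V14 and 6 without the control V16.

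**Figure D4:**
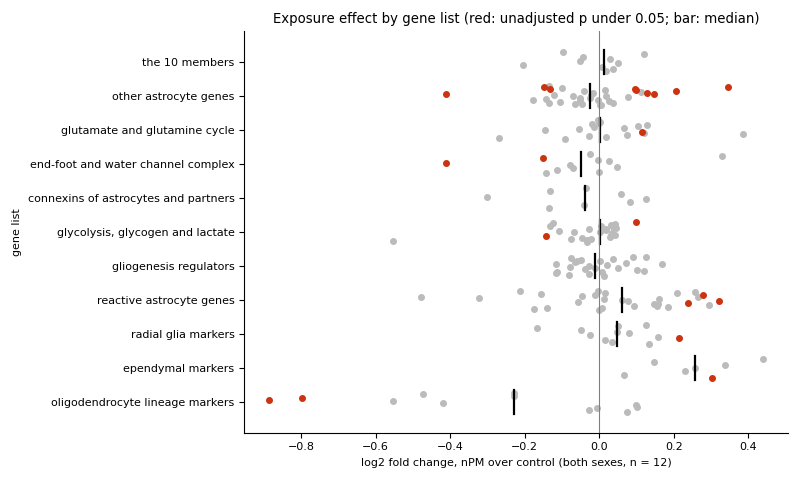
Log2 fold change of nPM over control in cortex of both sexes (n = 12) for each gene (points) of the astrocyte lists and of related cell types, with the median of each list as a bar; red marks an unadjusted p under 0.05. Astrocyte lists centre near 0, between −0.05 and 0.06, the ependymal markers at 0.26 and the oligodendrocyte lineage at −0.23.

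Markers of related and neighbouring cells were counted in the same way. Fabp7, a lipid-binding protein of radial glia, was at 367 ± 33.2 CPM in nPM and 319 ± 56.4 CPM in control cortex, with a log2 fold change of 0.21 (edgeR unadjusted p = 0.0425). The unadjusted p was above 0.05 without any 1 of 7 libraries, by DESeq2 and with a minimum of 10 counts. Without V24 Fabp7 was at 0.15. In females it was at 0.36 (edgeR adjusted p = 0.0292). It was the 1 gene of the 12 radial glia markers to pass in both sexes, or 8.33%. That count was 0 without V11 and by DESeq2, and 5 without V16. In females 4 passed, or 33.3%, with 2 without V11, and in males 1 passed, or 8.33%. Of 7 ependymal markers 1 passed an unadjusted p of 0.05 in both sexes, or 14.3%, and 4 in females, or 57.1%, a count that was 1 without V19 and 2 by DESeq2. In males none of the 7 passed. All 7 log2 fold changes were above 0 in both sexes together, 5 in females and 4 in males. The 1 gene in both sexes was Foxj1, the regulator of motile cilia, at 0.30 (edgeR unadjusted p = 0.0252).

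Oligodendrocyte lineage markers, 12 genes with Mbp or Pdgfra the most abundant by CPM and none at 0, summed to 492, 567 and 646 CPM in nPM cortex and 489, 616 and 924 CPM in controls. 2 of these 12 markers were lower at an unadjusted p under 0.05, or 16.7%, the myelin genes Mag at −0.80 (SE 0.33) and Mog at −0.89 (SE 0.41), while Olig1 was at −0.01. Without V24 Mag was at −0.35 (edgeR unadjusted p = 0.208) and Mog at −0.37 (edgeR unadjusted p = 0.325), and by limma voom and DESeq2 0 of the 12 passed. Without V9 Mag was at −1.04 and Mog at −1.19, and 6 of the 12 passed. In females 5 of the 12 were lower and none higher, or 41.7%, with 0 by DESeq2, 1 without V20 and 7 without V9. In males none of the 12 passed, with a median log2 fold change of −0.30, against −0.31 in females. Markers of tissue next to the cortex varied as well. Striatum markers, 9 genes without any at 0, summed to 244, 262 and 296 CPM in nPM cortex and 99.2, 231 and 392 CPM in controls. Choroid plexus markers, 6 genes led by Ttr, summed to 234, 403 and 510 CPM and to 30.6, 350 and 394 CPM. The control male V14 was lowest for both. Of the 10 astrocyte genes it was the lowest of the 12 libraries for 2, Aldh1l1 and Slc1a3, while for Aldoc only V24 was higher. The part of oligodendrocytes, striatum and choroid plexus in the values of the astrocyte genes was not tested.

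In blood most of the 10 genes were close to the limit of detection. The authors left 1 blood library out of their analysis for its count distribution, and which one is not given in the sources used here, so all 12 are described. The floor of 3 counts corresponded to 0.137 to 0.221 CPM, and such limits and intervals cover counting error only. Leaving aside the libraries V2 and V5, the 10 other blood libraries had 0 to 41 counts of Slc1a2, 0 to 12 of Aqp4 and 0 to 1 of Sox9, which was at 0 in 7 of them. Glul was the exception, with 1032 to 2489 counts and a median of 88.4 CPM, against a cortex median of 599.6 CPM. Gfap had 27 to 53 counts in each of these libraries, 1.39 to 2.47 CPM, where Aqp4 had a median of 0.08 CPM. The red cell markers alone summed to 517538 to 791210 CPM across the 12 blood libraries, and to 252 to 701 CPM in cortex. They lower the CPM of every other gene in blood, and unequally between libraries. Blood and cortex CPM, and percents of the cortex median, are therefore not on a like scale.

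V5, an nPM male, had 261 counts of Slc1a2, 140 of Aqp4, 87 of Aldoc and 81 of Gfap. These stood at 1.20% of the cortex median for Slc1a2, 3.34% for Aqp4, 2.24% for Aldoc and 3.53% for Gfap. The 12 neuron markers, led by Map2, summed to 42.6 CPM in V5, 79.8 CPM in the control female V2 and 1.25 to 12.1 CPM in the other 10 libraries. The oligodendrocyte lineage markers summed to 56.5 CPM in V5, led by Mbp, 105.9 CPM in V2, led by Pdgfra, and 12.1 to 27.5 CPM in the others. Of the astrocyte genes V2 had 7959 counts of Gja1, or 376 CPM (95% exact Poisson interval 368 to 384 CPM), above every cortex library, 497 counts of Sox9 and 668 of Slc1a3, but 3 counts each of Slc1a2 and Aqp4. Meninges markers, 8 genes led by Col3a1 with none at 0, summed to 4468 CPM in V2 and to 13.1 to 53.3 CPM in the other 11 blood libraries. The part of other tissue in these 2 libraries was not tested.

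**Figure D5:**
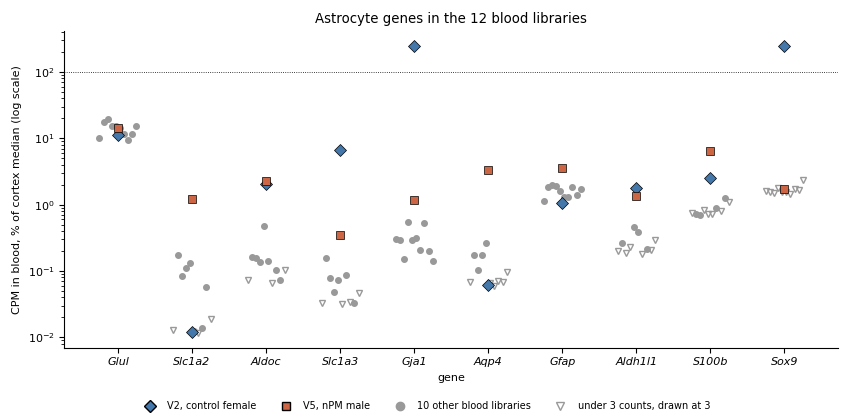
CPM of each astrocyte gene in the 12 blood libraries as a percent of the gene's cortex median (log axis); open triangles are libraries under 3 counts, drawn at 3 counts, and the dotted line is the cortex median. V5 lies above the other libraries for Slc1a2, Aqp4 and Gfap. V2 exceeds the cortex median for Gja1 and Sox9, and Glul is near 10% of cortex or more in most libraries. Red cell genes take most counts in blood, which lowers the percents of all other genes.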

How the data were processed

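Whole blood and cerebral cortex of mouse neonates gave 24 libraries. The authors aligned reads to mm10 with HISAT2 after Trimmomatic and FastQC, then assigned reads to Gencode M11 with featureCounts 1.5.0-p3. The strand setting is not given in the sources used here. Their deposited table holds counts without normalization for 48709 genes, and their gene table holds coordinates, lengths and a mean RPKM made by the authors, which was not used. Sample columns were matched to groups by the V numbers of the titles.

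Exposure was tested by quasi-likelihood F tests in edgeR 4.0.16 (R 4.3.3) with TMM factors, a prior count of 0.5 and RIN as covariate, on genes counted in all libraries fitted (minimum 1 count each), with Benjamini-Hochberg adjustment over all genes tested. Both sexes together, each sex, the exposure-by-sex term and the sex term were fitted, and the cutoffs were an unadjusted p of 0.005 (the cutoff of the study), 0.05 for counts, and an adjusted p of 0.05. Single genes were also compared by a two-sided exact permutation test of mean CPM over 924 splits. RPKM were computed from the counts and the deposited lengths. Blood was described by library, without a test of exposure. Dixon's outlier test was run on the groups of both tissues.

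Alternatives were limma voom (3.58.1), DESeq2 (1.42.0), RLE factors, other filters (genes counted in any library, a minimum of 10 counts throughout, and filterByExpr), no RIN, lane added, each cortex library left out, CPM without TMM and levels not divided by length. The 10 genes and the 19 lists were chosen with earlier results of these data known. Named from each list were the 2 genes with the smallest edgeR p in both sexes, the most abundant gene, and any gene with an unadjusted p under 0.005. Of the marker lists, those of meninges, endothelium, microglia, red cells and hypothalamus and thalamus are in the closing section. No 2 libraries of a tissue were copies, since the smallest chi-square per gene between any pair was 7.232 (cortex) and 18.18 (blood), far above the value near 1 of sampling noise. Pc, of the glutamate list, was found under the symbol Pcx. Of the genes the rule named, 2 are not reported here. The scripts were tested on simulated counts.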

Additional observations from a re-analysis of the deposited data

Results flagged for a closer look

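The 10 genes by tissue and exposure gave 40 groups of 6 libraries. In 15 of them the gap from the highest library to the next, relative to the range of the group, exceeded Dixon's 95% critical value. Chance flags about 1 in 20 independent groups of normal values. Genes of the same library are not independent and many blood counts were near 0, so that rate does not hold here. In nPM blood the flagged library was V5 for 8 genes. Its levels were 14.1 CPM of Slc1a2, 7.59 CPM of Aqp4, 4.72 CPM of Aldoc, 4.39 CPM of Gfap, 1.63 CPM of Slc1a3, 1.30 CPM of S100b, 1.03 CPM of Aldh1l1 and 0.163 CPM of Sox9, the last of these from 3 counts. In control blood it was V2 for 6 genes, at 376 CPM of Gja1, 31.5 CPM of Slc1a3, 23.5 CPM of Sox9, 4.34 CPM of Aldoc, 1.37 CPM of Aldh1l1 and 0.519 CPM of S100b. In control cortex it was V24 for Glul, at 772 CPM.

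Blood entered no comparison of the astrocyte genes, and there some nPM libraries exceeded each of the 6 control libraries. V5 did so for Slc1a2 at 14.1 CPM, Aqp4 at 7.59 CPM, Aldoc at 4.72 CPM, Gfap at 4.39 CPM and S100b at 1.30 CPM. The nPM female V18 did so for Glul, at 116 CPM. For the remaining genes the highest library was the control female V2, at 376 CPM of Gja1, 31.5 CPM of Slc1a3, 23.5 CPM of Sox9 and 1.37 CPM of Aldh1l1. With 6 libraries in each group, the highest lies in one group or the other for every gene, with or without an effect of exposure. An effect of exposure on these genes in blood was not tested.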

How the results depend on the processing

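Alternatives other than leaving out a library gave 80 values for the 10 genes in both sexes. Of these, 79 kept their direction and their side of an unadjusted p of 0.005. The exception was Slc1a2, when genes with at least 1 count in any library were kept (edgeR unadjusted p = 0.000145, adjusted p = 0.031). Under that filter 526 genes had an unadjusted p under 0.005 in both sexes in place of 128, 1642 in females in place of 873, 418 in males in place of 69, 787 for the interaction in place of 281 and 460 for sex in place of 108. Of the 10 genes, 1 in both sexes, 1 in females and 2 in males then passed that cutoff, and 1, 2 and 4 passed an unadjusted p of 0.05, with 1 for the interaction. The cause was not tested. In females, limma voom placed 1 of the 10 under 0.005, DESeq2 placed 0 under 0.05, and no RIN or lane added placed 2 under 0.05. In males, 41 genes passed under 0.005 with at least 10 counts in every library and 141 with lane added, which placed 3 of the 10 under 0.05 and 1 under 0.005. No RIN placed 0 there and turned Gfap to 0.023.

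When each library was left out in turn, genes under 0.005 numbered 68 to 314 in both sexes, 422 to 980 in females, 42 to 214 in males, 159 to 403 for the interaction and 42 to 428 for sex. Of the 10 genes, 0 to 2 in both sexes, 0 to 2 in females, 0 to 3 in males, 0 to 2 for the interaction and 0 to 1 for sex had an unadjusted p under 0.05, and 0 to 1 in females and for the interaction one under 0.005. In both sexes the log2 fold change ran from −0.053 (without V11) to 0.085 for Gfap, −0.028 (without V14) to 0.054 for Aldh1l1, −0.17 to 0.080 (without V24) for S100b and −0.080 to 0.018 (without V24) for Glul. For others it ran from −0.081 to 0.00082 for Sparcl1, −0.0066 to 0.057 for Mlc1, −0.0075 to 0.064 for Pkm, −0.090 to 0.0025 for S100a10, −0.027 to 0.012 for Olig1 and −0.32 to 0.17 for Hbb-bs. In males Gfap ran from −0.26 to 0.0075 (without V23) and Slc1a2 from −0.60 to 0.067 (without V24). The interaction ran from −0.016 (without V20) to 0.46 for Slc1a2, −0.00083 (without V20) to 0.65 for S100b and −0.26 to 0.021 (without V24) for Aldoc. Of 20 named genes with an unadjusted edgeR p under 0.05 in both sexes, 8 kept it without each library (Mfge8, Acsl6, Kcnj10, Dcn, Gad1, Trh, Six3 and Isl1, the last lost by DESeq2). The other 12 lost it without at least 1 of the 12, in 4 leave-outs for Cd109, 5 for Mag, 6 for Clcn2, Fbln5, Foxj1 and Penk, 7 for Fabp7, Gad2, Pfkp, Ppp1r3c and Slc17a6 and 9 for Mog. Of 37 that did not pass, 14 passed without at least 1 library, 10 of them without V16 (Slc1a2, Aldoc, C1qa, Gls2, Igf2, Otx2, Slc17a7, Smad1, Sox2 and Tmem119). The number of genes under 0.05 in both sexes ran, over the 12 leave-outs, from 0 to 4 for the glutamate, glycolysis and gliogenesis lists, 1 to 4 for end-feet, 0 to 1 for connexins, choroid plexus and red cells, 0 to 6 for reactive genes and oligodendrocytes, 0 to 5 for radial glia, 0 to 3 for ependyma, 1 to 3 for neurons and meninges, 2 to 5 for striatum and 0 to 2 for microglia.

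The order of levels depends on length. By CPM without division by it, the order was Slc1a2, Glul, Slc1a3, Aqp4, Aldoc and Gja1, with the other 4 genes in the same places as per length. In the male fit the interval of each of the 10 genes was wider than in the fit of both sexes, and levels under 3 counts in blood could not be told from 0.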

Other observations

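Genes of other cell types in the same cortex libraries gave the following values in both sexes, by edgeR. Dcn, a matrix protein of meningeal fibroblasts, was at 30.0 ± 2.32 CPM in nPM and 19.6 ± 5.43 CPM in control cortex (SD, n = 6), with a log2 fold change of 0.62 (SE 0.14, unadjusted p = 0.000376, adjusted p = 0.492). Igf2 was at 0.19 (unadjusted p = 0.069) and at 0.11 without the control male V14, and 1 of 8 meninges markers passed an unadjusted p of 0.05, or 12.5%, where 5.67% of all genes did. That count was 3 without V16, and in females 3 of the 8 were higher, or 37.5%, where 15.4% of all genes passed. In males 1 of the 8 was higher, or 12.5%, where 4.51% of all genes passed. Gad1, which makes GABA in inhibitory neurons, was at 115 ± 9.40 CPM against 95.9 ± 17.4 CPM, with a log2 fold change of 0.26 (SE 0.06, unadjusted p = 0.000432, adjusted p = 0.492), and Gad2 at 0.19 (unadjusted p = 0.0315). Both were higher, and 2 of 12 neuron markers passed, or 16.7%, while Tubb3 was at 0.06. Without RIN the unadjusted p of Gad2 was above 0.05 and 1 of the 12 passed. Trh, a hypothalamic peptide precursor, was at 5.73 ± 0.41 CPM against 7.21 ± 0.86 CPM, with a log2 fold change of −0.33 (unadjusted p = 0.00395, adjusted p = 0.779), the 1 gene to pass of the 5 tested among 12 markers of hypothalamus and thalamus, where Lef1 was at 0.20.

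Of 9 striatum markers all had log2 fold changes above 0 and 3 passed an unadjusted p of 0.05, or 33.3%, Six3 at 1.25, Isl1 at 0.93 and Penk at 0.61. That count was 0 with a minimum of 10 counts and 6 when genes counted in any library were kept. Without V14 Penk was at 0.40, and its unadjusted p was above 0.05 by DESeq2, with a minimum of 10 counts, with filterByExpr, without RIN and with lane added. Of 6 choroid plexus markers, whose log2 fold changes were above 0 as well, none passed, with Kcne2 at 0.52, Otx2 at 0.48 and Ttr at 0.43. Without V14 they were at 0.29, 0.25 and 0.17. Without V16 they were at 0.78, 0.84 and 0.63, and Otx2 then had an unadjusted p under 0.05. None of 8 microglia markers passed (Tmem119 at −0.28 and C1qa at −0.14, and −0.12 and −0.066 without V24). Tmem119 was at −0.41 without V16 and C1qa at −0.24 without V11, each with an unadjusted p under 0.05. None of 8 endothelium markers passed (Ocln at 0.17, Kdr at 0.12 and Cldn5 at 0.11, and 0.084, 0.044 and 0.045 without V14). None of 7 red cell markers passed (Slc4a1 at −0.31 and Hbb-bs at −0.03, with Slc4a1 at −0.62, unadjusted p = 0.0214, without V20 and −0.16 without V11). Rarres2, an ependymal marker, was at 0.26 and in females at 0.53 (unadjusted p = 0.00725, adjusted p = 0.145).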
